A study of Mus musculus with 19 samples.

Results

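Gdf3, Nodal, Lefty1 and Lefty2, with the co-receptor, receptor, convertase and Smad genes Tdgf1, Acvr1b, Furin, Pcsk6 and Smad2, were followed through 19 single mouse embryos. These 9 genes were matched by exact symbol among the 53379 gene rows of the count table. The set was chosen by the low counts of Gdf3 in Alyref KO morulae. Its difference between Alyref KO and non-KO morulae, and that of the other 8 genes in the same contrast, is therefore described here without a test. Of the 9 genes, 7 passed the filter on low values used for testing and were among the 18410 genes tested. Nodal and Furin did not pass it.

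Nodal and Gdf3 are secreted ligands of the TGF-beta family, and both are made as precursors that the convertases Furin and Pcsk6 (PACE4) can cleave. Nodal and Gdf3 signal with the membrane-anchored co-receptor Tdgf1 (Cripto) through activin receptors, among them the type I receptor Acvr1b (ALK4), which phosphorylates Smad2. Smad2 then enters the nucleus with Smad4 and acts with partners such as Foxh1. Lefty1 and Lefty2 are secreted inhibitors that Nodal signalling itself induces, and in the mouse blastocyst Lefty1, Nodal and Tdgf1 are known from the inner cell mass.

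All embryos were of the B6D2F1 background, were made by in vitro fertilisation, were cultured in KSOM medium at 37 degrees C under 5% CO2, and were taken at 96 hours post insemination, whatever their stage. In the Alyref cross, Alyref+/- sperm fertilised Alyref+/- oocytes, and the embryos used were 2 Alyref KO (Alyref-/-) morulae, with 3 non-KO morulae and, of blastocysts, 3 non-KO ones. From Gabpb1+/- sperm and Gabpb1+/- oocytes came 3 morulae labelled Gabpb1 KO (Gabpb1-/-), 2 non-KO morulae and again 3 blastocysts, none of them KO. Non-KO embryos of either cross are WT or heterozygous, which the labels do not tell apart. WT parents gave 3 WT blastocysts. Each library came from 1 embryo, so every n is a number of embryos. Morulae and blastocysts were of equal age, so that a stage difference here is one between embryos that had and had not formed a blastocyst by the same hour. KO status was read by the submitters from absent reads over the deleted region, and oocytes of heterozygous mothers can carry maternal RNA of the targeted gene.

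Gene counts per embryo ranged from 7.49 M to 31.5 M. Levels of a gene are given as CPM, its counts over the TMM-scaled library size. Levels of different genes are compared as FPKM, which also divides by the deposited exon length. Alyref itself averaged 53.4 ± 7.60 CPM (SD, n = 2) in Alyref KO embryos, while the morulae of that cross that were not KO averaged 222 ± 65.9 CPM (SD, n = 3). The morulae labelled Gabpb1 KO did not have less Gabpb1 than the non-KO morulae, with 164 ± 91.7 CPM (SD, n = 3) against 89.1 ± 7.50 CPM (SD, n = 2), so no direction below is tied to loss of Gabpb1. Summed over the 12 trophectoderm markers, blastocysts held 5360 to 8530 CPM and morulae 505 to 5180 CPM. Marker lists of cumulus cells and of sperm summed to no more than 3.48 and 2.16 CPM in any embryo.

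Per unit length, the genes of the pathway ranged from abundant to nearly undetected. Tdgf1 was the most abundant member, with a median of 42.7 FPKM over the 19 embryos. Smad2 followed with a median of 23.1 FPKM, Gdf3 with 19.4 FPKM and Pcsk6 with 9.29 FPKM. Acvr1b had a median of 0.890 FPKM and Furin of 0.561 FPKM. Nodal, at 0.182 FPKM, and Lefty1, at 0.136 FPKM, lay lower still, and the median of Lefty2 was 0. The ranges over the embryos overlapped for every pair of neighbours in this order.

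Among the other genes of the pathway, Cfc1 (Cryptic), a co-receptor related to Tdgf1, had a median of 14.2 FPKM, and Smad4, the shared partner of the receptor Smads, 12.5 FPKM. The type II receptor genes Acvr2b and Acvr2a had medians of 5.51 and 2.29 FPKM. Foxh1, which encodes a forkhead partner of Smad2, had 9.34 FPKM. Smad3, the close relative of Smad2, had a median of 0.738 FPKM. The Nodal co-ligand Gdf1 was at 0.0961 FPKM and the secreted inhibitor Cer1 at a median of 0, while Dand5, a secreted inhibitor of the same family as Cer1, was at 3.29 FPKM.

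**Figure D1:**
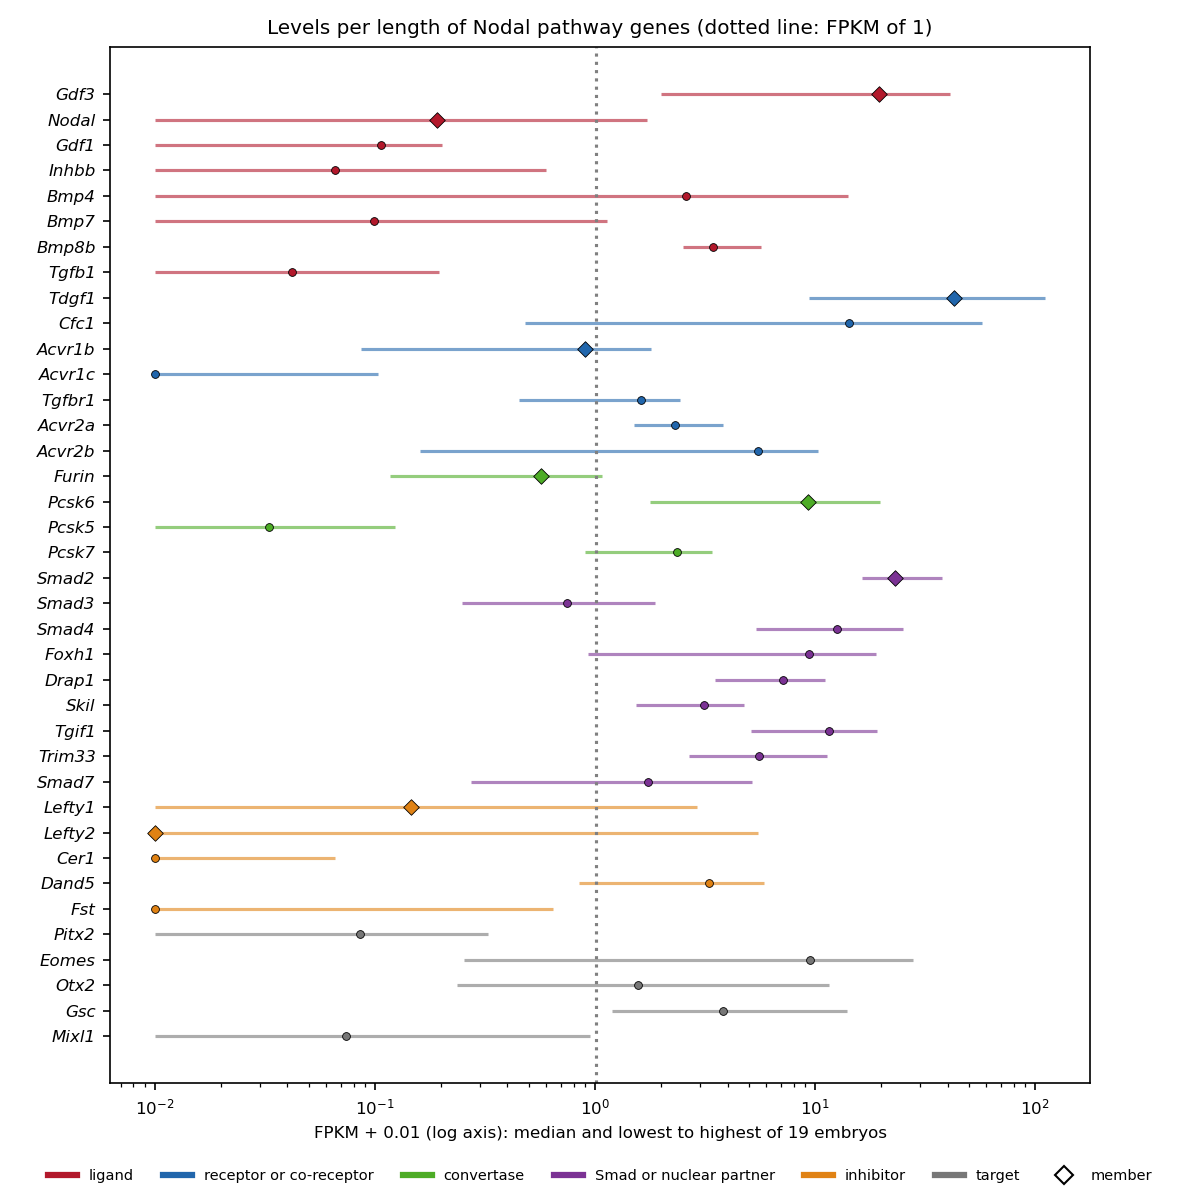
Median (marker) and range from lowest to highest (line) of the FPKM of 38 ligand, receptor, convertase, Smad, inhibitor and target genes over 19 embryos, on a log axis of FPKM + 0.01, with diamonds for the 9 genes of the set. Tdgf1, Smad2, Gdf3 and Pcsk6 lie above an FPKM of 1 in every embryo, and Nodal, Lefty1 and Lefty2 have medians under 0.2.

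Gdf3, on chromosome 6 (mm10, chr6:122605403-122610087, minus strand), was detected in every embryo. It stood at 5.84 and 4.83 CPM in the 2 Alyref KO morulae, from 44 and 72 counts, and at 82.1, 21.7 and 99.4 CPM in the 3 non-KO morulae of the same cross, from 1503, 256 and 1526 counts. The Alyref KO morulae were the lowest of all 19 embryos, and the next lowest embryo was the non-KO morula at 21.7 CPM. With means of 5.33 ± 0.716 CPM (SD, n = 2) and 67.7 ± 40.8 CPM (SD, n = 3), non-KO morulae held 12.7 times the Gdf3 of KO morulae. In bulk libraries of whole embryos, fewer cells that express a gene and less RNA per cell cannot be told apart.

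In the Gabpb1 cross, Gdf3 was at 54.8, 23.7 and 47.1 CPM in the morulae labelled Gabpb1 KO and at 37.8 and 26.1 CPM in the non-KO morulae. These groups overlapped. Blastocysts held 51.1, 42.8 and 78.3 CPM in the Alyref cross, 77.6, 29.2 and 34.2 CPM in the Gabpb1 cross, and 86.4, 60.9 and 87.8 CPM in the WT group. In order of their means, the groups ran from the Alyref KO morulae through the Gabpb1 cross non-KO morulae (31.9 CPM), the morulae labelled Gabpb1 KO (41.9 CPM), the Gabpb1 cross blastocysts (47.0 CPM), the Alyref cross blastocysts (57.4 CPM) and the Alyref cross non-KO morulae to the WT blastocysts (78.3 CPM). Apart from the Alyref KO morulae, every group overlapped with its neighbour in this order.

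Tdgf1 (chr9:110939603-110946158, minus strand) was also lower in the Alyref KO morulae, at 49.4 and 43.5 CPM, than in the non-KO morulae of the cross, at 95.3, 73.5 and 147 CPM. The groups did not overlap, and the means of 46.4 ± 4.15 CPM (SD, n = 2) and 105 ± 37.9 CPM (SD, n = 3) differed by a ratio of 2.27. Values as low as those of the Alyref KO morulae also occurred in the Gabpb1 cross. There Tdgf1 was at 105, 37.1 and 34.8 CPM in the morulae labelled Gabpb1 KO and at 112 and 24.6 CPM in the non-KO morulae, a wide spread within both groups. Blastocysts ranged from 59.8 to 292 CPM. Some reads of Tdgf1 could be shared with its pseudogene Tdgf1-ps1, since 8.86% of the 50-base words of its transcripts also occur there.

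Smad2 (chr18:76241580-76305731, plus strand) differed the other way by a small amount. It was at 125 and 134 CPM in the Alyref KO morulae and at 120, 89.9 and 115 CPM in the non-KO morulae. The groups did not overlap, and the ratio of the means (129 and 108 CPM) was 1.20.

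The other 6 genes overlapped between Alyref KO and non-KO morulae. Pcsk6 was at 14.3 and 13.8 CPM in the KO morulae, against 9.17, 9.84 and 35.7 CPM in the non-KO morulae. Acvr1b was at 2.92 and 2.88 CPM, against 1.42, 0.339 and 4.17 CPM. Furin was at 2.66 and 4.09 CPM, against 0.983, 1.70 and 4.88 CPM. For these 3 genes the KO values lay within the range of the non-KO morulae. Nodal had no count in either KO morula and 11, 0 and 0 counts in the non-KO morulae, Lefty1 had 0 and 2 against 12, 1 and 14 counts, and Lefty2 had 0 and 2 against 1, 0 and 0 counts. The single embryos of the groups overlapped for all 3 genes. Pooled over embryos, Lefty1 was at 0.0891 CPM in the KO morulae (exact 95% counting interval 0.0108 to 0.322). In the non-KO morulae it was at 0.594 CPM (0.391 to 0.864). In the same order, Nodal was at 0 CPM (0 to 0.164) and 0.242 CPM (0.121 to 0.433). Lefty2 was at 0.0891 CPM (0.0108 to 0.322) and 0.022 CPM (0.000557 to 0.123). These intervals cover counting error only, not the spread between embryos, so they do not compare the groups.

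Thus 3 of the 7 tested members did not overlap between Alyref KO and non-KO morulae, where 24.9% of all tested genes did not overlap. The count comes from the contrast that selected Gdf3, and nothing is read from it.

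**Figure D2:**
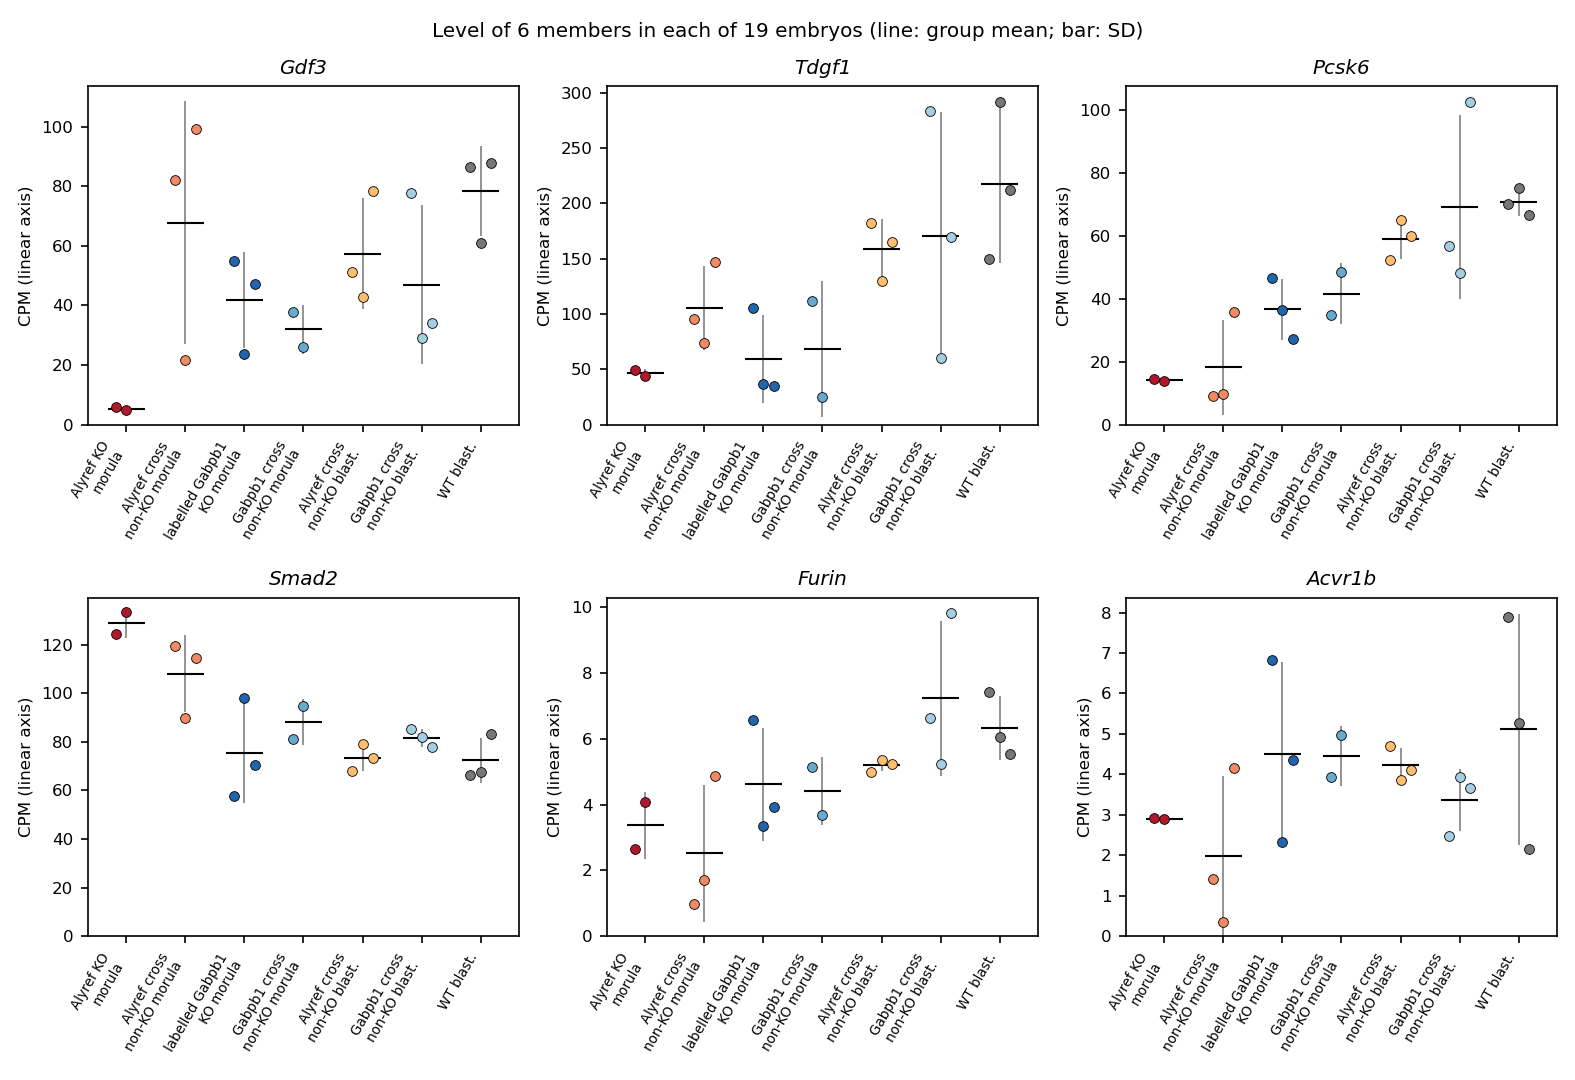
CPM of Gdf3, Tdgf1, Pcsk6, Smad2, Furin and Acvr1b in each of 19 embryos (points), by group, with the group mean (horizontal line) and SD (vertical bar) on linear axes that start at 0. The Alyref KO morulae, at 4.83 and 5.84 CPM, lie below all other embryos for Gdf3, while for Pcsk6 and Acvr1b they lie within the range of the Alyref cross non-KO morulae.

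Beside the members, 66 further genes of TGF-beta family signalling were listed (ligands, receptors, convertases, Smads and nuclear partners, secreted inhibitors and targets), and 37 of them were tested. None of the 37 was called between Alyref KO and non-KO morulae, where 0.228% of all tested genes were, and 7 of the 37 did not overlap between these groups, where 24.9% of all tested genes did not. Nothing is read from these counts either. The 7 were Foxh1, Otx2, Dand5 and Trim33, lower in the KO morulae, and Skil, Acvr2a and Smad1, higher there. Foxh1, Acvr2a and Skil were listed for their levels, and the others are named after their values had been seen. Foxh1 was at 1.86 and 1.21 CPM in the Alyref KO morulae and at 7.81, 2.12 and 24.7 CPM in the non-KO morulae. The lowest non-KO morula, at 2.12 CPM, was close to the KO embryos, and it was also the embryo with the lowest Gdf3 of its group. Otx2, a homeobox gene that Nodal signalling can induce in later embryos, was at 2.66 and 1.07 CPM in the KO morulae and at 8.24, 15.4 and 21.03 CPM in the non-KO morulae. Dand5 was at 1.33 and 1.34 CPM, against 3.60, 8.48 and 4.10 CPM. Skil, which encodes the Smad co-repressor SnoN, was higher, at 46.2 and 39.3 CPM against 33.5, 14.8 and 27.1 CPM. Trim33, which encodes a nuclear ligase that binds Smads, averaged 30.7 CPM against 61.1 CPM, Acvr2a 19.6 against 13.0 CPM and Smad1, a receptor Smad of BMP signalling, 6.16 against 2.16 CPM. Single morulae of the Gabpb1 cross came close to or below the values of the Alyref KO embryos, with 0.952 CPM for Otx2, 1.93 CPM for Foxh1 and 1.40 CPM for Dand5.

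Nanog and Dppa3, pluripotency genes near Gdf3 on the chromosome, were abundant in every morula. Nanog, whose start lies 97.4 kb from that of Gdf3, was at 514 and 481 CPM in the Alyref KO morulae and at 376, 285 and 363 CPM in the non-KO morulae. Dppa3 (Stella), 16.3 kb away, was at 2747 and 3431 CPM, against 4640, 4226 and 3115 CPM. Nanog thus lay above the non-KO range, and Dppa3 overlapped with it. Apobec1, the nearest row on the other side at 7.64 kb, did not exceed 1.58 CPM in any embryo. The other tested rows within 150 kb were Rimklb, Mfap5, Gm10224 and Gm10420. Between KO and non-KO morulae, Rimklb averaged 14.9 against 50.7 ± 68.1 CPM (SD) and Mfap5 18.5 against 32.7 ± 16.7 CPM (SD). Gm10224 averaged 68.3 against 104 CPM, also lower in the KO morulae, and Gm10420 28.9 against 25.3 CPM. No tested neighbour was called in this contrast by edgeR. Over the 19 embryos, which share their library preparation and differ in depth, Pearson's r with Gdf3 on log2(CPM + 1) was -0.50 for Nanog and -0.36 for Dppa3, as a description. Both values include the Alyref KO morulae, whose low Gdf3 chose the set.

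Markers of the cell types of the blastocyst were summed in the same embryos. The summed level of 11 epiblast and inner cell mass markers, Tdgf1 among them, was 1250 to 1340 CPM in the Alyref KO and 1140 to 1440 CPM in the non-KO morulae. The 12 trophectoderm markers summed to 1140 to 2090 CPM against 1190 to 2450 CPM, and the 9 primitive endoderm markers to 582 to 599 CPM against 538 to 796 CPM. These 3 sums overlapped between the groups. Dab2, which is on both the trophectoderm and the primitive endoderm list, made up most of the latter sum, at means of 409 and 479 CPM. On the trophectoderm list, Fgfbp1 was lower (means of 0.5 against 2.06 CPM) and Krt7 higher (13.3 against 2.95 CPM) in the KO morulae without overlap. All primitive endoderm markers overlapped. Within the epiblast and inner cell mass list, 4 of the 11 genes did not overlap, where 24.9% of all tested genes did not. Nothing is read from this count. Pou5f1 was lower in the KO morulae, at a mean of 69.2 against 115 CPM, as were Prdm14, at 1.69 against 9.79 CPM, and Tdgf1, whereas Nanog was higher, at 497 against 341 CPM. Of the 11 epiblast and inner cell mass markers, at least 10 were detected in every embryo, and of the 9 primitive endoderm markers 7 in both KO morulae and 5 to 8 in the non-KO morulae. The 7 oocyte and maternal markers were lower in the KO morulae, at 13.3 to 19.4 CPM against 45.9 to 65.6 CPM, and their part in the Gdf3 values was not tested. Most of that sum was Ooep, at 8.45 and 11.6 CPM in the KO morulae and 38.4 to 60.9 CPM in the non-KO morulae, and in blastocysts the sum was higher than in either, at 82.2 to 188 CPM.

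**Figure D3:**
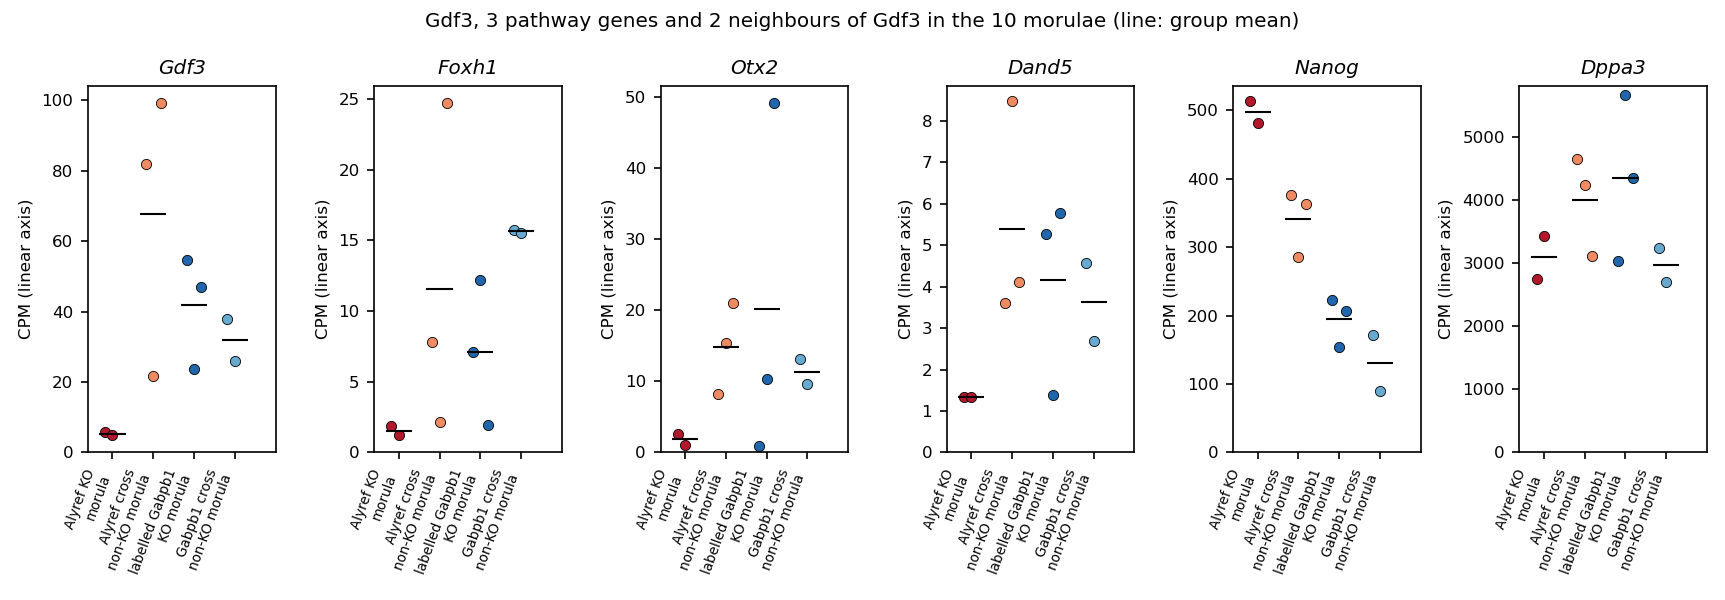
CPM of Gdf3, of the pathway genes Foxh1, Otx2 and Dand5, and of the chromosomal neighbours Nanog and Dppa3 in each of the 10 morulae (points), with group means (lines), on linear axes that start at 0. The Alyref KO morulae are lowest for Gdf3, highest for Nanog, and within the range of the other morulae for Dppa3.

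The comparison of morulae labelled Gabpb1 KO with non-KO morulae of that cross uses no embryo of the contrast that chose Gdf3. None of the 7 tested members was called in it by edgeR's quasi-likelihood test, against 1.65% of all tested genes, and no member had an unadjusted p under 0.05, against 18.9% of all tested genes. The log2 fold change of Gdf3 was 0.39 (SE 0.55, adjusted p = 0.733), that of Tdgf1 was -0.21 (SE 0.64, adjusted p = 0.891) and that of Smad2 was -0.22 (SE 0.21, adjusted p = 0.596), all by edgeR. The sign for Tdgf1 turned without the second embryo labelled KO (0.0082), without the third (0.031) and without the first non-KO morula (1.26). Nodal, which was not tested, had 10, 0 and 0 counts in the morulae labelled Gabpb1 KO and 21 and 47 counts in the non-KO morulae. The latter pair gave the highest Nodal levels of the series, 1.5 and 3.6 CPM. With no filter on low values the log2 fold change of Nodal was -3.20 (SE 1.44, adjusted p = 0.383 by edgeR).

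None of the 37 other pathway genes was called either, by edgeR, while 8 had an unadjusted p under 0.05, against the 18.9% of all tested genes given above, a share near that of the list. Id3, which encodes a helix-loop-helix inhibitor that BMP signalling induces, was picked out after its values had been seen. It was at 86.3, 222 and 196 CPM in the morulae labelled Gabpb1 KO and at 27.0 and 25.5 CPM in the non-KO morulae. The groups did not overlap, and the difference on the log2 scale was 2.68 (SE 0.74, adjusted p = 0.0758 by edgeR). Id3 was called by DESeq2 (adjusted p = 0.00226), by edgeR without the filter on low values (adjusted p = 0.0478) and by edgeR without the first of the embryos labelled KO (adjusted p = 0.0381). It was not called in the other 9 of the 12 alternatives, all by edgeR, with adjusted p up to 0.369. Of the 7 tested target genes some, Id3 among them, lay above the non-KO morulae without overlap and some below. The share of all tested genes without overlap is not given for this contrast, and nothing is read from this. Those below were Id2, at means of 42.8 against 327 CPM (adjusted p = 0.187 by edgeR), and Eomes. Eomes averaged 5.97 against 31.5 CPM (adjusted p = 0.194 by edgeR), and both genes are also trophectoderm markers here. The 12 trophectoderm markers summed to 505 to 3130 CPM in the embryos labelled KO and to 3400 to 5180 CPM in the non-KO morulae, and their part in these values was not tested.

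Pcsk6 (chr7:65861734-66050386, plus strand) was the only tested member called between stages, in the Alyref cross. It was at 52.5, 65.2 and 59.8 CPM in the blastocysts and at 9.17, 9.84 and 35.7 CPM in the non-KO morulae. All 3 blastocysts lay above all 3 morulae, and 1 morula was well above the other 2. The means were 59.2 ± 6.38 and 18.2 ± 15.1 CPM (SD, n = 3 each), which gave 1.70 on the log2 scale (SE 0.43, adjusted p = 0.0231 by edgeR), where 13.0% of all tested genes were called. The call was lost when the libraries were scaled by the spike-in counts (1.14, adjusted p = 0.503), when only the compared groups were fitted (1.73, adjusted p = 0.106) and when any 1 of the 6 embryos but the third morula was left out (adjusted p from 0.0533 to 0.101). Without the third morula it was 2.64 (adjusted p = 0.00044).

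Smad2 was lower in the blastocysts of the Alyref cross, at 68.2, 79.2 and 73.3 CPM, than in its non-KO morulae, without overlap, but did not pass the test (log2 fold change -0.56, SE 0.19, adjusted p = 0.0655 by edgeR). DESeq2 called it, with an adjusted p of 0.0321. Tdgf1 was at 182, 130 and 165 CPM in these blastocysts and overlapped with the morulae (log2 fold change 0.59, SE 0.57, adjusted p = 0.501 by edgeR). Acvr1b, at 4.70, 3.87 and 4.10 CPM in the blastocysts, differed by 1.09 on the log2 scale (SE 0.64, adjusted p = 0.258 by edgeR), and by 2.21 (adjusted p = 0.0218) without the third morula. Gdf3, whose level in the non-KO morulae had entered the choice of the set, overlapped between the stages. The non-KO morulae of the Alyref cross are the same embryos as in the contrast with Alyref KO morulae. Of the 7 tested members, Pcsk6 and Smad2 did not overlap between the stages, against 38.9% of all tested genes.

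Of the 37 other pathway genes, 4 were called between the stages of the Alyref cross, 2 higher and 2 lower in blastocysts, close to the 13.0% of all tested genes called there and so not a result about the list. Cfc1 was at 35.4, 25.0 and 25.0 CPM in the blastocysts and at 0.491, 2.38 and 6.25 CPM in the morulae (log2 fold change 3.23, SE 0.97, adjusted p = 0.0403 by edgeR). Drap1, which encodes a co-repressor that restrains Foxh1, was at 16.1, 13.2 and 17.2 CPM against 9.23, 6.11 and 9.90 CPM (log2 fold change 0.88, SE 0.27, adjusted p = 0.046 by edgeR). Both genes had all blastocysts above all morulae. Id3 was lower in blastocysts, at 61.0, 29.1 and 30.8 CPM against 61.6, 295 and 121 CPM (log2 fold change -1.98, SE 0.61, adjusted p = 0.0444 by edgeR). Ppm1a, which encodes a phosphatase of the receptor Smads, was at 201, 149 and 198 CPM against 492, 1110 and 355 CPM (log2 fold change -1.84, SE 0.38, adjusted p = 0.011 by edgeR). The lowest Id3 morula was close to the highest blastocyst, whereas Ppm1a was well separated. Each of these 4 calls was lost in several alternatives, with adjusted p up to 0.264 for Cfc1, 0.781 for Drap1, 0.271 for Id3 and 0.0676 for Ppm1a, and none changed sign. Leaving out either of the first 2 morulae or any blastocyst lost the calls of Cfc1 and Drap1. That of Id3 was lost without the second morula, where it was -1.15, or without any 1 blastocyst. That of Ppm1a was lost without the second morula, where it was -1.19, or without the second blastocyst.

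In the Gabpb1 cross, none of the 7 tested members was called between stages by edgeR, where 0% of all tested genes were. An unadjusted p under 0.05 was reached by 1237 genes (6.72%), 1 of them a member (Lefty1), and DESeq2 called 57 genes, none of them a member. Pcsk6 was at 56.9, 48.2 and 103 CPM in the blastocysts and at 34.8 and 48.5 CPM in the non-KO morulae, which overlapped (log2 fold change 0.74, SE 0.48, adjusted p = 0.821 by edgeR). Scaled by the spike-in counts, its log2 fold change was -0.23. Tdgf1 ranged from 59.8 to 283 CPM in the blastocysts (log2 fold change 1.32, SE 0.67, adjusted p = 0.767 by edgeR). Acvr1b, higher in blastocysts of the Alyref cross, was lower here, at means of 3.36 CPM against 4.45 CPM in the non-KO morulae. Its log2 fold change was -0.41 (SE 0.70, adjusted p = 0.961 by edgeR). Lefty1 had 1, 2 and 15 counts in the blastocysts and none in the 2 non-KO morulae. The difference in stage effect between the crosses was not past the threshold for any tested member, with -0.96 (SE 0.63, adjusted p = 0.506) for Pcsk6 and 0.45 (SE 0.29, adjusted p = 0.498) for Smad2, by edgeR on the log2 scale. None of the other 37 genes was called, by edgeR or DESeq2, and 3 had an unadjusted p under 0.05 by edgeR, against 6.72% of all tested genes.

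The promoters of Tdgf1 and Pcsk6 are shown because these are the abundant co-receptor and convertase of the set, and Pcsk6 is its only stage call. They are the 250 bases before the RefSeq start (GRCm38.p6), read 5′ to 3′ on the gene's strand, all in lower case because neither motif searched was found in them.
Tdgf1: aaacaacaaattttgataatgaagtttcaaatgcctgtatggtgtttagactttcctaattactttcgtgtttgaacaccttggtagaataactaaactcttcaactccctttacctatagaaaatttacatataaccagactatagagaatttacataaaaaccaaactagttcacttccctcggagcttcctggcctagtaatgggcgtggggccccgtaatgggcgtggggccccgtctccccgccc
Pcsk6: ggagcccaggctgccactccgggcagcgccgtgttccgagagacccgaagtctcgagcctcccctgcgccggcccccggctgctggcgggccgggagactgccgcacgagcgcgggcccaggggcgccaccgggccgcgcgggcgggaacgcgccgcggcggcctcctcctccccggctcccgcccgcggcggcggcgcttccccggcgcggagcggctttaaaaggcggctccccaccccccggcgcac
The Tdgf1 stretch is chr9:110946159-110946408 on the minus strand, with a GC content of 42.0%, and the Pcsk6 stretch is chr7:65861886-65862135 on the plus strand, with 81.2%. The RefSeq start of Pcsk6 lies downstream of the start in the count table (65861734), so the Pcsk6 stretch falls inside that gene row. The median GC content of all promoters of this length was 52.4%. The ETS core CCGGAAG, the motif of the GABP family, and the FOXH1 motif AATNCACA were searched on both strands in the 5 members with an entry (Nodal, Tdgf1, Furin, Pcsk6 and Acvr1b). Neither occurs in their windows, and they occur in 6.91% and 3.18% of the 32851 promoters of this length.

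When non-KO morulae were compared across crosses, none of the 7 tested members was called by edgeR, where 1.85% of all tested genes were. An unadjusted p under 0.05 was reached by 2 of the 7, against 22.4% of all tested genes. The Alyref cross non-KO morulae are again those of the contrast that chose Gdf3. The crosses were fertilised separately, and a batch effect cannot be told apart from one of the cross. The log2 fold change of Gdf3, Gabpb1 cross over Alyref cross, was -1.09, with overlap (SE 0.56, adjusted p = 0.261 by edgeR). Pcsk6 was higher there by 1.19 (SE 0.47, adjusted p = 0.158 by edgeR), and Acvr1b, at 3.94 and 4.97 CPM, by 1.16 (SE 0.70, adjusted p = 0.332 by edgeR). Without the third Alyref cross non-KO morula, Pcsk6 (2.13, adjusted p = 0.00359) and Acvr1b (2.29, adjusted p = 0.0375) were both called. That embryo had the highest Pcsk6, Acvr1b and Furin of its group. None of the 37 other pathway genes was called by edgeR, and 7 had an unadjusted p under 0.05, against 22.4% of all tested genes.

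The Lefty genes were low or at 0 except in WT blastocysts. Lefty2 (chr1:180893108-180899103, plus strand) had 2, 139 and 212 counts in the WT blastocysts. The other 16 embryos held 7 counts of Lefty2 in all, with 3, 0 and 0 in the Alyref cross blastocysts and none in the Gabpb1 cross blastocysts. Of the WT blastocysts, 2 were thus far above every other embryo, and the first was at the level of the rest. Pooled over the embryos of a group, Lefty2 was 149 times higher in WT than in Alyref cross blastocysts, with a 95% counting interval from 50.7 to 728. Against the Gabpb1 cross blastocysts it was at least 88.9-fold higher, taking 3 counts over the group as the floor. These bounds cover counting error only, not the spread between embryos. The ratio rests on 3 counts in 1 Alyref cross blastocyst and on 2 of the 3 WT embryos. It was 221 without the first WT blastocyst, 88.7 without the third and at least 69.1 without the Alyref cross blastocyst that held the counts. With 1 embryo left out, the bound against the Gabpb1 cross ranged from 52.8 without the third WT blastocyst to 132 without the first.

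Lefty1 (chr1:180935022-180938400, plus strand) had 11, 79 and 40 counts in the WT blastocysts, 12, 0 and 4 in the Alyref cross blastocysts and 1, 2 and 15 in the Gabpb1 cross blastocysts. The same 2 WT embryos were highest for Lefty1 as for Lefty2. Reads of Lefty1 and Lefty2 could be split between them in part, since their transcripts share 306 words of 50 bases and align over 1155 bases at 91.5% identity. Nodal (chr10:61417972-61425338, plus strand) had 11, 14 and 17 counts in the WT blastocysts, 16, 0 and 4 in those of the Alyref cross and 9, 0 and 3 in those of the Gabpb1 cross. WT blastocysts were the only group of more than 2 embryos with Nodal counts in each.

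None of the 7 tested members was called against WT blastocysts in either cross by edgeR, where 0% of all tested genes were called in each. Unadjusted p under 0.05 was reached by 541 genes (2.94%) in the Alyref cross and by 1123 genes (6.10%) in the Gabpb1 cross, and DESeq2 called 14 and 41 genes. Lefty1 and Lefty2 reached 1 FPKM only in the second and the third WT blastocysts and passed the filter on low values through them alone, so their tests against WT are not independent of the filter and support nothing. With no filter beyond 1 count, the adjusted p of Lefty2 was 0.456 in the Alyref and 0.182 in the Gabpb1 cross, by edgeR. The log2 fold change of Lefty1 over WT was -3.41 in the Alyref cross (SE 1.31, adjusted p = 1) and -2.51 in the Gabpb1 cross (SE 1.26, adjusted p = 0.838), and neither passed by edgeR, under the same limit. That of Gdf3 was -0.45 (SE 0.48, adjusted p = 1) and -0.74 (SE 0.49, adjusted p = 0.891), again without passing by edgeR. None of the 37 other pathway genes was called in either comparison by edgeR or DESeq2, and 3 and 2 had an unadjusted p under 0.05 by edgeR, against the shares of all tested genes just given.

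The 2 WT blastocysts with high Lefty counts also had the highest sums of the 9 primitive endoderm markers, 1520 and 1250 CPM, against 935 CPM in the first WT blastocyst and 768 to 1190 CPM in the other 6. Foxa2, an endoderm regulator in that list, was at 2.22, 4.76 and 3.72 CPM in the WT blastocysts and at no more than 1.17 CPM elsewhere. Most of the primitive endoderm sum in the blastocysts of the 2 crosses was Dab2, which is also on the trophectoderm list. Dab2 averaged 754 CPM in the Alyref cross and 753 CPM in the Gabpb1 cross blastocysts. The part of these markers in the Lefty values was not tested. The 11 epiblast and inner cell mass markers summed to 866 to 1070 CPM in WT and to 806 to 1140 CPM in the other blastocysts.

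**Figure D4:**
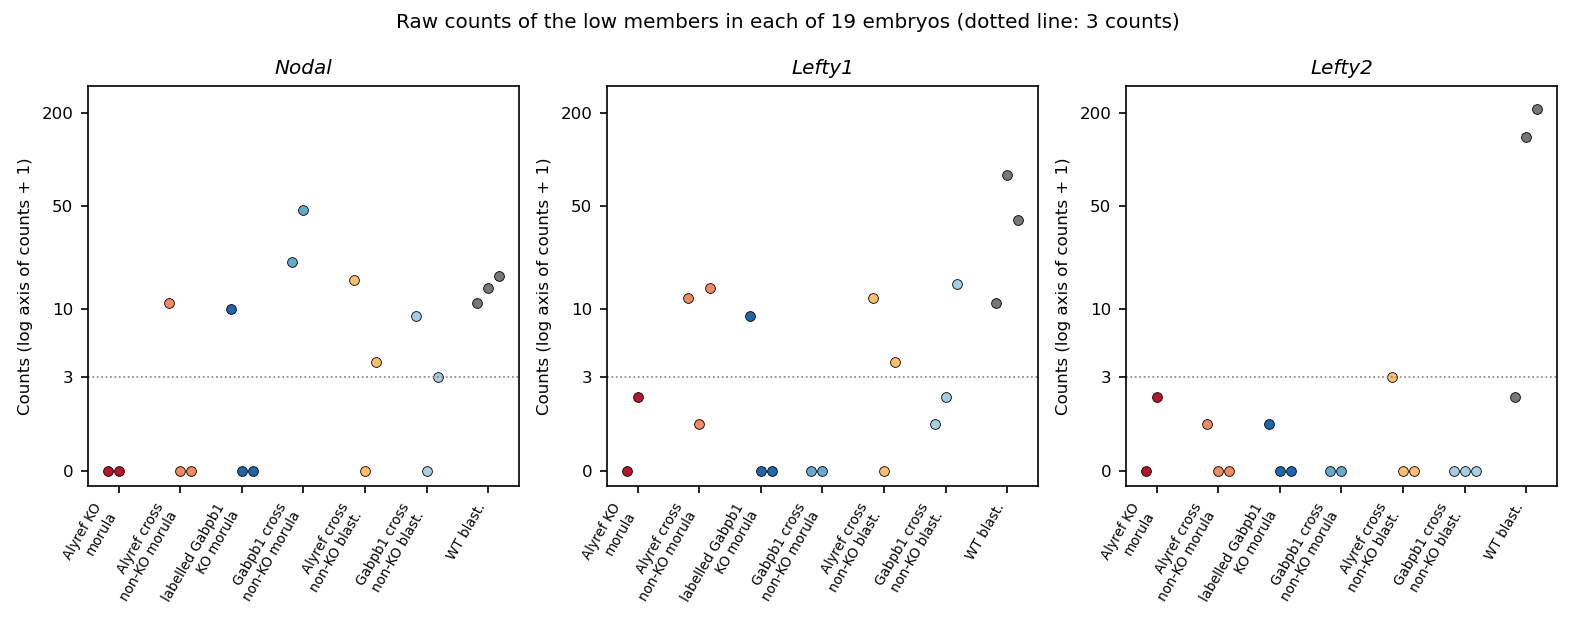
Raw counts of Nodal, Lefty1 and Lefty2 in each of 19 embryos (points), by group, on a log axis of counts + 1, with a dotted line at 3 counts. Lefty2 exceeds 3 counts only in 2 WT blastocysts, with 139 and 212 counts, and Nodal is above 20 counts only in the Gabpb1 cross non-KO morulae.

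Furin (chr7:80388585-80405436, minus strand) was low but present in every embryo. It ranged from 0.983 CPM in an Alyref cross non-KO morula to 9.83 CPM in a Gabpb1 cross blastocyst. Blastocysts held 4.99, 5.37 and 5.25 CPM in the Alyref cross, 6.62, 5.24 and 9.83 CPM in the Gabpb1 cross and 7.41, 6.05 and 5.54 CPM in WT. All blastocysts of the Alyref cross lay above its non-KO morulae. Tested with no filter on low values, the stage difference of Furin in that cross was 1.10 on the log2 scale (SE 0.51, adjusted p = 0.253 by edgeR). Acvr1b (chr15:101174067-101213679, plus strand) ranged from 0.339 to 7.88 CPM, both ends within groups that also held middle values.

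Over the 19 embryos, Furin and Pcsk6 varied together, with Pearson's r of 0.88 on log2(CPM + 1). Lefty1 and Lefty2 had an r of 0.83 and Gdf3 and Tdgf1 of 0.65, while Pcsk6 and Smad2 had an r of -0.67. The points share stage, cross and library effects, and these values are descriptions. The r of Gdf3 and Tdgf1 includes the Alyref KO morulae, whose low Gdf3 chose the set. That of Lefty1 and Lefty2 includes the WT blastocysts through which alone both passed the filter. Of the 11435 tested genes with a mean of 5 CPM or more, those most like Gdf3 were Etfbkmt (r = 0.90), Tmem245 (0.88), Gtsf1l (0.88), Utf1 (0.87) and Atf7 (0.86). The median r with Gdf3 over these genes was 0.06, and 0.192% of them exceeded 0.8. Without the Alyref KO morulae, over 17 embryos, r was 0.64 for Etfbkmt, 0.82 for Tmem245, 0.74 for Gtsf1l, 0.80 for Utf1 and 0.55 for Atf7. Utf1, a chromatin-associated gene of pluripotent cells, was at 30.8 and 9.25 CPM in the Alyref KO morulae and at 76.9, 39.3 and 160 CPM in the non-KO morulae. Those most like Lefty1 were Pgc (r = 0.78), Chrac1 (0.73), Col4a1 (0.72), mt-Tg (0.72) and Dnmt3a (0.72). The median r with Lefty1 over the same genes was 0.05, and 0% exceeded 0.8. Like Lefty1, each of these 5 genes had its highest group mean in WT blastocysts. Lefty1 passed the filter through WT blastocysts alone and the genes were picked by their r with it, so this supports nothing. Over the 10 morulae alone, r was 0.58 for Chrac1, 0.60 for Col4a1, 0.57 for mt-Tg and 0.53 for Dnmt3a. By r in the morulae, these genes ranked only 478, 402, 502 and 706 of the 11435, in the same order. Lefty1 itself had no more than 14 counts in any morula. For Pgc the r was 0.12 over the 10 morulae alone, and its mean was 25.0 ± 8.47 CPM (SD, n = 3) in WT blastocysts and 3.58 CPM or less in every other group.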

How the data were processed

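PolyA RNA of 19 single embryos was amplified over 16 PCR cycles with ERCC spike-in RNA, per the labels' protocols. The authors deposited 1 table of raw counts per gene, although its name announces FPKM, with merged exon lengths. Per the submitters' processing notes, the build was mm10 and the tools named were Trimmomatic, Trim Galore, cutadapt, STAR and featureCounts. The strand setting is not given in the sources used here, so overlapping antisense genes could share reads. Columns were matched to embryos by the code in their labels. The 92 ERCC rows stayed out of the library sizes.

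Genes reaching 1 FPKM in 2 or more embryos were tested, 18410 of 39262 with any count. A model with 1 mean per group (7 groups, all embryos) was fitted with edgeR 4.0.16 under R 4.3.3, using TMM scaling and the quasi-likelihood F test. P-values were adjusted by Benjamini-Hochberg over all tested genes, and a gene is called under 0.05. SE is the size of the log2 fold change over the square root of F. Fold changes are first over second group. DESeq2 1.42.0 was an alternative. On simulated data for the stage contrast of the Alyref cross (18410 genes), a log2 change of 1 was recovered in 4.48% of changed genes. A change of 2 was recovered in 71.6% and a change of 3 in 78.8%, and 3 calls were wrong. Only 67, 67 and 66 genes were given these changes, drawn from genes with higher counts. In the real contrast 13.0% of tested genes were called, so these rates need not hold there.

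The named genes were the 9 members, every called gene of 66 listed pathway genes up to 4 per direction, 8 pathway genes fixed for their levels, the 5 genes most correlated with Gdf3 and with Lefty1, and rows within 150 kb of the Gdf3 start. Cell type markers were fixed lists for epiblast, trophectoderm, primitive endoderm, cumulus cells, sperm and oocyte. The members and lists were chosen with earlier results of these data known. The test of the difference in stage effect between crosses, r without the Alyref KO morulae, and the Lefty2 ratio with 1 embryo left out were chosen after seeing the data. Of the gene rows, 50604 have an identifier in GENCODE M21, all with the same start and end, among them 7 of the 9 members. Promoters came from RefSeq and matched 5 members. The libraries carry no molecular identifiers and PCR copies molecules, so floors (3 counts) and intervals (exact, 95%) cover counting error only.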

Additional observations from a re-analysis of the deposited data

How the results depend on the processing

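The alternatives were DESeq2's size factors or spike-in counts for scaling, no filter or edgeR's filterByExpr, DESeq2, a fit of the compared groups alone, the replicate number as a block, and leaving out each embryo. Where 1 embryo remained in a group, it was assumed to vary like the other groups. Members called between stages of the Alyref cross went from 1 to 0 under spike-in scaling, to 0 with the compared groups alone, and to 2 (Pcsk6 and Smad2) with DESeq2. Leaving out 1 embryo gave 0 to 2. Between non-KO morulae of the crosses, leaving out 1 embryo gave 0 to 2 (Pcsk6 and Acvr1b without the third Alyref cross morula). Against WT blastocysts, DESeq2 called 1 member in the Gabpb1 cross, Lefty2, which passed the filter through WT embryos alone, so that the call supports nothing. In the other comparisons and alternatives no member was called. Pcsk6 between stages of the Gabpb1 cross turned to -0.23 under spike-in scaling. Tdgf1 in morulae labelled Gabpb1 KO lay between -0.926 and 1.26 with 1 embryo left out, and turned to 0.00817 and 0.0313 without the second and the third of the embryos labelled KO and to 1.26 without the first non-KO morula. The cause was not tested.

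Same-numbered embryos deviated from their group means with r from -0.156 to 0.168 over 17 pairs, so the replicate numbers do not pair them. With the replicate number as a block, 1 member was called between stages of the Alyref cross and 0 in the other 5 comparisons, as without it. The block lost the stage calls of Cfc1 (adjusted p = 0.0551), Drap1 (0.0651) and Id3 (0.0639), by edgeR.

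Spike-in scaling put the median log2 fold change of all tested genes at -0.41 for morulae labelled Gabpb1 KO, -0.34 and -0.86 between stages of the Alyref and Gabpb1 crosses, 0.39 between non-KO morulae and 0.15 for the Alyref cross against WT. Counts of all genes called changed as well. For morulae labelled Gabpb1 KO, 303 became 26 under spike-in scaling, 1283 with DESeq2, 0 with the compared groups alone and 48 to 966 without 1 embryo. Between stages of the Alyref cross, 2402 became 352, 3762, 24 and 370 to 4560. Between non-KO morulae, 341 became 2, 1706, 0 and 0 to 2435. The log2 ratio of Gdf3 between Alyref KO and non-KO morulae stayed between -4.10 and -3.28 in 7 alternatives, and that of Tdgf1 between -1.40 and -0.86. Nodal and Lefty2 had only 0 to 11 and 0 to 2 counts in Alyref cross morulae, and the part of depth in this was not tested. In the simulated stage contrast of the Alyref cross, with 3 embryos against 3, a simulated log2 change of 1 was recovered in 4.48% of the 67 genes given it. Far fewer genes were changed there than were called in the real contrast, so this rate need not hold for it.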
